A study of Mus musculus with 3 samples.

Results

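The cells described here were CD8 T cells of 4T1 mammary tumors that did not carry transcripts of the inhibitory receptor gene Pdcd1 (PD-1) together with those of Lag3 or Havcr2 (TIM-3). They were chosen by transcripts alone. Cells were kept with 1500 or more unique molecular identifiers (UMIs, tags by which copies of 1 captured RNA are counted once), with 300 or more genes seen and with mitochondrial genes taking no more than 20% of the counts. A member had to show at least 2 of Cd3d, Cd3e, Cd3g and Trac, fewer than 2 of the cell-cycle genes Mki67, Top2a, Birc5 and Cdk1, and no Trdc. It finally needed at least 1 UMI of Cd8a or Cd8b1 and none of Cd4. By this rule 420 of the 12472 kept cells, and of 16143 barcodes in all, were selected, which were 420 of 651 CD8 T cells and of 1723 T cells. They fell into 144 cells of the vehicle library, 136 of the p38i library and 140 of the p38KO library.

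CD8 T cells recognise peptides on major histocompatibility complex class I through the T cell receptor and kill target cells with perforin and granzymes. In tumors, long exposure to antigen is known to lead to exhaustion, a state of reduced function in which PD-1, LAG-3 and TIM-3 are carried together. CD8 T cells outside that state can be naive or central memory cells, which circulate through lymph nodes under the control of Klf2 and Ccr7, effector cells, or resident memory cells, which are held in epithelia by the integrin chain CD103, the product of Itgae.

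Female BALB/c mice of 6 to 8 weeks received 200000 4T1 cells, a transplantable mammary carcinoma line of this strain that carried a luciferase reporter (4T1-luc), in PBS and Matrigel into mammary fat pad number 4. The vehicle group bore tumors of p38α wild-type 4T1-luc cells and was given the vehicle DPBS for 10 days from day 4, the p38i group bore the same tumors and was given the p38 inhibitor LY2228820 (ralimetinib) at 30 mg/kg by daily gavage over the same days, and the p38KO group bore tumors of the clone p38a-KO-H9, in which p38α (Mapk14) had been inactivated by CRISPR-Cas9, with no treatment stated. Live CD45+ cells were sorted at day 14 from 3 pooled tumors of comparable size per group and sequenced as 1 library per group. All host leukocytes were thus genetically wild type, p38i could act on every cell of the mouse, and p38KO was a single clone, for whose mice the sources used here state no gavage. No library was replicated, so groups were not tested against each other, the spread between mice was not measured, and condition and library cannot be told apart. All intervals given below are 95% intervals that cover counting error only.

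The selected cells carried 860702 UMIs in vehicle, 665630 in p38i and 866888 in p38KO. All triplets of values below keep this order. Their median depth was 5191, 4524 and 5446 UMIs per cell, with 1800, 1686 and 2009 genes. The p38i cells were therefore the shallowest in both respects. The median mitochondrial share was 2.80%, 2.83% and 3.02%. Of all barcodes, 6 were shared by the vehicle and p38i libraries, 5 by the vehicle and p38KO libraries and 9 by the p38i and p38KO libraries, and 0 of the selected cells shared one. A share of the cells also held RNA of other cell types. Cells with transcripts of at least 5 of 30 markers of myeloid, B and dendritic cells, called mixed cells here, numbered 11, 8 and 20 (7.64%, 5.88% and 14.3%). The 30 markers left out S100a8, S100a9 and Il1b, so a cell with RNA of these genes alone was not counted as mixed. The alternative below that leaves out cells with 3 or more other-cell markers counted these genes too. The median depth of the mixed cells was 9528, 8461 and 6792 UMIs against 5011, 4401 and 5344 in the other cells. The p38KO library thus held the most mixed cells, and no doublets were removed, so values without the mixed cells are given beside those that rest on them.

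The label of cells without exhaustion transcripts held only for the pair. Of the 144, 136 and 140 cells, 76, 82 and 99 had none of Pdcd1, Lag3 and Havcr2. Pdcd1 alone was present in 28, 21 and 29 cells, and Lag3 or Havcr2 without Pdcd1 in 40, 33 and 12. The cells are therefore called pair-negative below, and the 109, 100 and 22 CD8 T cells with Pdcd1 together with Lag3 or Havcr2 are called pair-positive. Pair-negative cells made up 56.9% (50.6% to 63.1%) of CD8 T cells in the vehicle library, 57.6% (51.0% to 64.0%) in the p38i library and 86.4% (80.2% to 91.3%) in the p38KO library, with exact Clopper-Pearson intervals. These shares are fixed by the transcripts the rule reads and are a description. Of all kept cells, pair-negative cells made up 3.77%, 2.84% and 3.63% and pair-positive cells 2.85%, 2.09% and 0.570%. Pair-positive cells were deeper in the vehicle and p38i libraries, with medians of 6827 and 6017 UMIs, and shallower in the p38KO library, with 4774 UMIs. When the rule was read after each cell had been thinned to 1500 UMIs, the share was 85.2%, 85.2% and 97.3%.

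**Figure D1:**
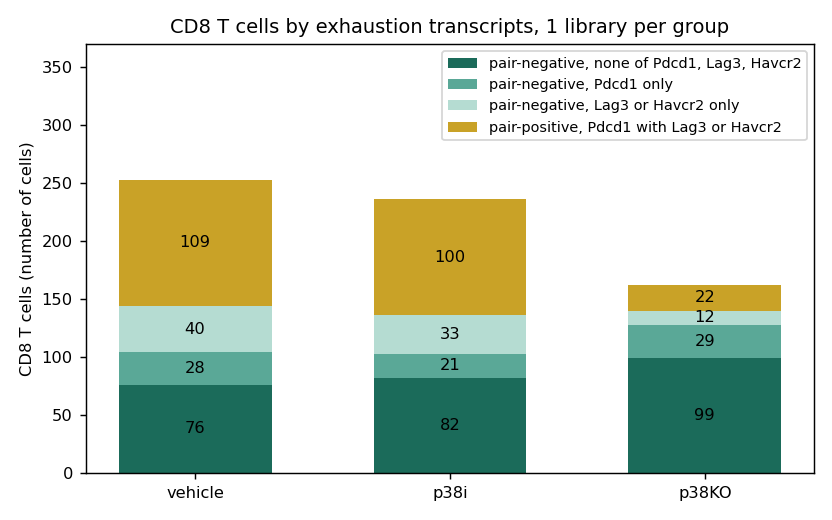
Number of CD8 T cells (vertical axis, cells) in the vehicle, p38i and p38KO libraries, 1 library each, split by the exhaustion transcripts they carried. The pair-negative cells, drawn in the 3 green shades, number 144, 136 and 140, and the pair-positive cells on top number 109, 100 and 22.

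The edge of the rule was thin. Of the pair-positive cells just outside it, 4, 9 and 6 held exactly 1 UMI of Pdcd1 and 1 of Lag3 or Havcr2. Just inside it, a pair-negative cell held up to 9, 6 and 10 UMIs of Pdcd1 without the partners, and up to 9, 11 and 5 UMIs of Lag3 and Havcr2 without Pdcd1. The pair-positive cells had medians of 3, 2 and 2 UMIs of Pdcd1 and of 3, 3 and 1 UMIs of Lag3 and Havcr2. Both Cd8a and Cd8b1, the chains of the CD8 coreceptor, were found in 122, 108 and 123 pair-negative cells, so most of them were CD8 T cells by both chains.

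Of the marker genes, Cd3e, a chain of the T cell receptor complex, was found in 143, 129 and 137 cells, Cd8a in 138, 124 and 134 and Cd8b1 in 128, 120 and 129, all of which the rule itself used. Tcf7, which encodes the transcription factor TCF-1 of naive and stem-like T cells and which the rule did not use, was found in 52, 37 and 39 cells. After thinning to 1500 UMIs, 18.1%, 13.2% and 10.7% of the cells had a UMI of it, against 0.237%, 0.0638% and 0.140% of granulocytes, the cells with S100a8 and S100a9 and no CD3 chain or Trac, whose median depth was 2592, 2456 and 2335 UMIs before thinning. The marker was thus above the level that free RNA gave, but most of the cells did not show it.

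Leaving out mitochondrial and ribosomal protein genes, the most abundant transcripts over all 420 cells were, in order, Tmsb4x, Malat1, Actb, Tpt1, Fau and Eef1a1. Cd52, a small glycoprotein of the lymphocyte surface, had 3828, 4145 and 4538 CPM, the counts of a gene summed over the cells of a library and scaled to a total of 1000000 UMIs. Nkg7, a protein of cytotoxic granules, had 1943 (1851 to 2038), 2105 (1996 to 2218) and 1996 (1903 to 2092) CPM and was detected in 137, 127 and 135 cells. S100a9, a neutrophil gene, was also among the leading 20 genes, with 2713, 3517 and 2297 CPM in 92, 88 and 58 cells. In each library 1 cell held a large part of these counts, 30.8%, 26.7% and 25.8%. The log2 ratio of p38KO to vehicle was -0.24 with all cells and 2.22 without the mixed cells, and that of p38KO to p38i was -0.61 and 1.25, so that both lay above 0 by more than their counting intervals once the mixed cells were left out.

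Pair-negative cells were set beside the pair-positive CD8 T cells of the same library, a contrast that the rule itself fixed and that carries no test. Among 1177 genes with enough counts, other than those the rule read, 559 had the same sign in all 3 libraries, 198 higher and 361 lower in pair-negative cells. Ly6c2, a surface antigen of memory CD8 T cells, had 1084, 651 and 754 CPM against 260.4, 91.1 and 218 in pair-positive cells, a log2 difference of 2.06, 2.84 and 1.79. Klf2, the transcription factor that keeps T cells in circulation, had 634, 410.1 and 258 CPM against 107, 47.9 and 89.7, with log2 differences of 2.57, 3.10 and 1.53. Both were higher in pair-negative cells of every library, by more than their counting intervals. Itgb7, an integrin chain, differed by 2.15, 3.07 and 1.28 and Ly6a (Sca-1) by 2.07, 2.79 and 1.53 in the same direction. Ifng, the effector cytokine, had 43.0, 90.1 and 56.5 CPM against 175, 272 and 160.1, with log2 differences of -2.03, -1.59 and -1.50, and the chemokine gene Ccl4 differed by -2.43, -1.76 and -1.47. Tnfrsf9 (4-1BB), a costimulatory receptor of recently stimulated cells, differed by -1.90, -1.26 and -1.42 and Irf8 by -2.47, -1.40 and -1.30. The values of the p38KO library rest on 22 pair-positive cells.

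Between libraries a gene was called by size, when its log2 ratio was 0.5 or more in size, its exact conditional binomial interval left out 0, and both libraries together held 20 or more counts of it. Of 6819 genes tested between p38i and vehicle, 4.53% were called higher and 2.67% lower in p38i. Of 7228 genes tested between p38KO and vehicle, 6.7% were called higher and 3.74% lower in p38KO. Of 6951 genes tested between p38KO and p38i, 4.5% were called higher and 4.4% lower in p38KO. The counts of called genes of each list below stand beside these shares of all genes. The first 2 of these comparisons share the vehicle library, so their values are given side by side and are not independent. The median log2 ratio over all genes tested was 0.065, 0.089 and 0.016 for p38i minus vehicle, p38KO minus vehicle and p38KO minus p38i. Single cells weighed on many calls. Of the 484 genes called higher in p38KO than in vehicle, 259 were also called both without the mixed cells and without the cell that held the most UMIs of the gene, and of the 270 called lower, 156 were. For p38i the same held for 174 of 309 genes called higher and 99 of 182 called lower. Values without those cells are therefore printed for the genes that the results turn on where they end a call.

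Itgae and Itga1, a pair of integrin genes of the tissue residence list, were called higher in p38KO than in both other libraries. Itgae (CD103) had 26.7 (16.9 to 40.1), 27.0 (16.0 to 42.7) and 135 (112 to 162) CPM and was found in 10, 14 and 56 cells. After thinning, 2.08%, 2.21% and 14.3% of the cells had a UMI of it, against 0.158%, 0.319% and 0.979% of granulocytes. The vehicle and p38i cells were alike within counting error and the p38KO cells lay above both intervals. The log2 ratio to vehicle was 2.34 (1.68 to 3.05) in p38KO and 0.017 (-0.96 to 0.97) in p38i, and that of p38KO to p38i was 2.32 (1.60 to 3.12), and without the mixed cells the first was 2.64. In pair-positive cells Itgae had 0, 15.4 and 378 CPM and in conventional CD4 T cells (Cd4 present, Cd8a, Cd8b1 and Foxp3 at 0) 5.46, 28.2 and 30.1 CPM, so that the high level of the p38KO library was also seen in its 22 pair-positive CD8 cells and was not seen to the same height in CD4 cells. Itga1 (CD49a), the collagen-binding integrin chain of resident cells, had 112, 87.1 and 194 CPM, with a log2 ratio to vehicle of 0.80 (0.43 to 1.17) in p38KO. Cxcr6, a chemokine receptor of tissue T cells, had 583, 625 and 919 CPM, with 0.66 (0.49 to 0.82) in p38KO, which was 0.46 and under the limit when the rule was read after thinning.

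Genes of chemokine reception were lower in p38KO. Ccr2, the receptor of the monocyte-attracting chemokine CCL2, had 246 (214 to 282), 147 (119.5 to 179) and 88.8 (70.1 to 111) CPM and log2 ratios to vehicle of -1.47 (-1.87 to -1.09) in p38KO and -0.74 (-1.10 to -0.39) in p38i. Cxcr4, the receptor of CXCL12, had 51.1, 40.6 and 15.0 CPM, with -1.77 (-2.79 to -0.85) in p38KO and -0.33, not called, in p38i. Without the mixed cells its p38i ratio was -1.74 (-2.90 to -0.72) and called lower. The Cxcr4 ratio of p38KO to p38i was then -0.94 and not called, against -1.44 with all cells. Rgs1, a brake on chemokine receptor signalling, had 301, 81.1 and 130.4 CPM and was called lower in both, with -1.21 (-1.54 to -0.88) in p38KO and -1.89 (-2.34 to -1.46) in p38i. The vehicle cells held the most of all 3 genes. Rgs1 was also highest in the vehicle library among conventional CD4 T cells, at 506, 182 and 400.0 CPM, and among pair-positive cells, at 378, 129.7 and 186 CPM. Over the whole list of 24 homing and residence genes, 4 of 18 tested genes were called higher and 3 lower in p38KO than in vehicle (median -0.036), and 0 higher and 3 lower in p38i (median -0.022). Between p38KO and p38i, 7 of 18 were called higher and 3 lower. The shares of all genes were 6.7% and 3.74%, 4.53% and 2.67%, and 4.5% and 4.4% in these comparisons, in the same order. Capg, an actin-capping protein and with Cxcr6 the most abundant of the list, had 336, 361 and 385 CPM and was called in no comparison.

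**Figure D2:**
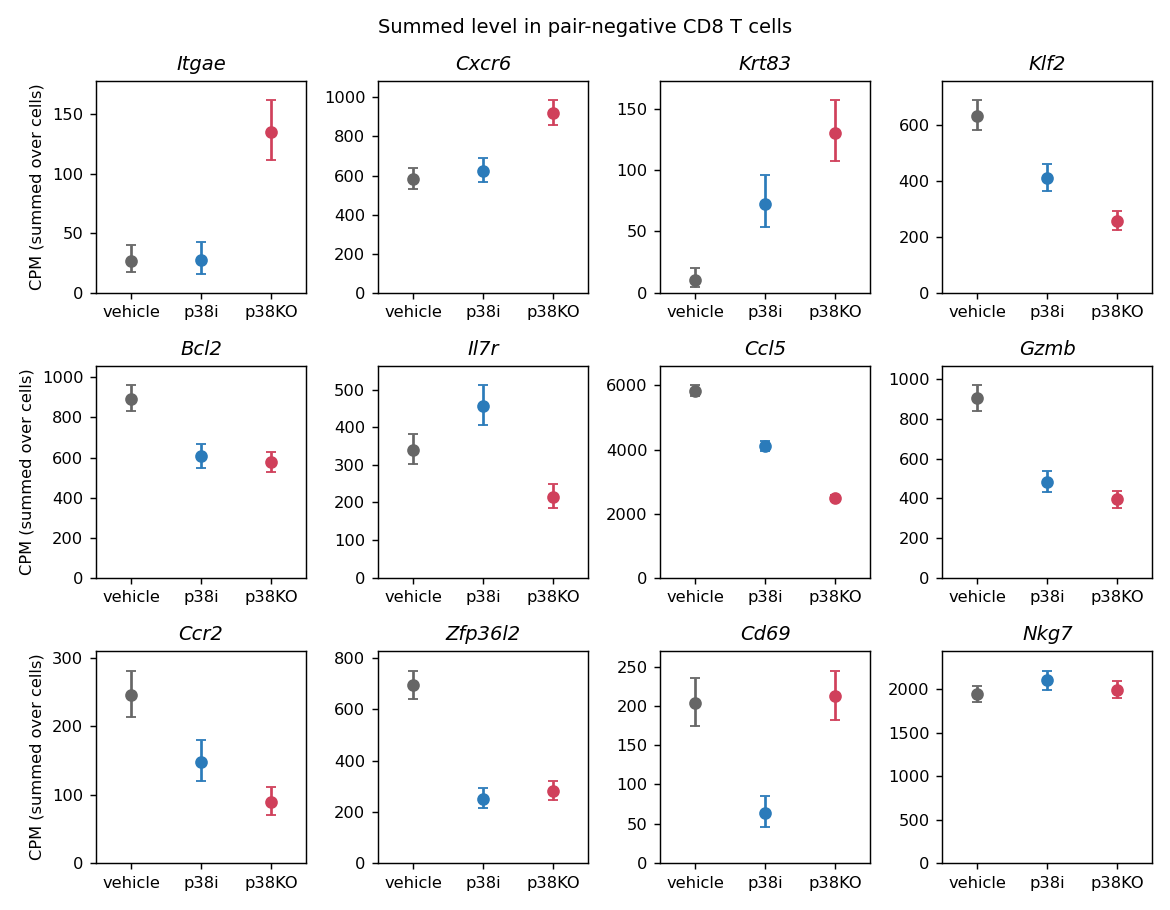
Level of 12 genes (vertical axes, CPM summed over the pair-negative CD8 T cells of a library, starting at 0) in the vehicle, p38i and p38KO libraries, 1 library each. Points are the summed levels and bars exact Poisson 95% intervals for counting error. Itgae is high in p38KO alone, Klf2, Ccl5 and Ccr2 are highest in vehicle, Cd69 is low in p38i alone, and Nkg7 is nearly level.

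Krt83, a keratin gene, was among the leading genes called higher in p38KO than in vehicle and was also called higher in p38i. It had 10.5 (4.78 to 19.8), 72.1 (53.2 to 95.6) and 130.4 (107 to 157) CPM and was found in 7, 22 and 41 cells, or in 1.39%, 11.8% and 21.4% of cells after thinning against 0.237%, 0.0319% and 0.187% of granulocytes. Relative to vehicle its log2 ratio reached 3.64 (2.66 to 4.81) in p38KO and 2.79 (1.74 to 4.00) in p38i. The order of the 3 libraries was the same without the mixed cells, where these ratios were 3.82 and 2.86. In pair-positive cells the level was 6.00, 10.8 and 173 CPM, whereas conventional CD4 T cells held 155, 120.1 and 183 CPM, with the vehicle library between the other two.

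The naive and memory genes were lower in the p38KO cells. Of 19 tested genes, 10 were called lower and 0 higher than in vehicle, with a median of -0.57 against 0.089 over all genes. In p38i, 2 of 18 were called lower and 1 higher, with a median of 0.059. The summed level of the list was 3301, 2915 and 2093 CPM. Without the mixed cells 10 genes were called lower in p38KO and 0 higher, and with the rule read after thinning 9 and 0. The genes called lower in p38KO were Tcf7, Ccr7, Il7r, Klf2, S1pr1, Satb1, Slamf6, Cd27, Bcl2 and Cd28, of which S1pr1 was not called without the mixed cells, at -0.44 against -0.57. With the rule read after thinning Tcf7, S1pr1 and Slamf6 were not called, and Bach2 and Dapl1 were called lower.

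Klf2 had 634 (582 to 689.9), 410.1 (363 to 462) and 258 (226 to 295) CPM, so that the 3 libraries did not overlap within counting error, with log2 ratios to vehicle of -1.30 (-1.53 to -1.07) in p38KO and -0.63 (-0.84 to -0.42) in p38i. Bcl2, the survival factor that memory cells depend on, had 895 (833 to 960.1), 605 (548 to 668) and 576 (526 to 628) CPM, with -0.64 (-0.80 to -0.47) in p38KO and -0.56 (-0.74 to -0.39) in p38i. Both other libraries thus lay below vehicle for these genes. Il7r, the receptor of the survival cytokine interleukin-7, was instead highest in p38i, with 340.4 (303 to 382), 457 (407 to 511) and 216 (186 to 249) CPM and log2 ratios of -0.66 (-0.93 to -0.39) in p38KO and 0.42 (0.19 to 0.66) in p38i, the latter not called. Cd27, a costimulatory receptor of naive and memory cells, had 124, 169.8 and 73.8 CPM and -0.75 (-1.22 to -0.29) in p38KO. Dapl1, the only gene of the list called higher in p38i, had 32.5, 73.6 and 30.0 CPM in 7, 16 and 11 cells, and its log2 ratio of 1.18 (0.48 to 1.90) turned to -0.16 when the rule was read after thinning.

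Ccr7 and Tcf7, classical naive markers, were called lower in p38KO than in vehicle, but neither call held under every alternative. Ccr7, the lymph node homing receptor, had 94.1 (74.7 to 117), 67.6 (49.3 to 90.5) and 45.0 (32.0 to 61.5) CPM and a log2 ratio of -1.06 (-1.65 to -0.50) in p38KO, which was -0.42 and under the limit when every cell was weighted equally, and 0.27 without cells that showed 3 or more of the other-cell markers. Tcf7 had 102 (82.0 to 126), 93.1 (71.4 to 119) and 71.5 (54.8 to 91.7) CPM and was just past the limit in p38KO, at -0.52 (-1.01 to -0.03), but 0.11 with the rule read after thinning. Lef1, the partner factor of TCF-1, had 92.9, 120.2 and 85.4 CPM and was not called against vehicle with all cells.

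Genes of the cytotoxic list, which also holds cytokine and chemokine genes, were called in both directions. Of 21 tested, 6 were called higher and 4 lower in p38i than in vehicle, against 4.53% and 2.67% of all genes. The 6 were Gzmf, Ifng, Ccl3, Ccl4, Xcl1 and Zeb2, and the 4 Gzma, Gzmb, Gzmm and Ccl5. Of 20 in p38KO, 3 were called higher and 8 lower, against 6.7% and 3.74% of all genes. The 3 were Gzma, Ctsw and Tnf, and the 8 Gzmb, Gzmk, Gzmm, Prf1, Ccl3, Ccl5, Csf1 and Prdm1. The medians were -0.049 and -0.15. Between p38KO and p38i, 10 of 19 were called lower and 2 higher, with a median of -0.60. Without the top cell of each gene only 2 were still called higher in p38i, Ifng and Xcl1, and 6 lower in p38KO than in p38i. Ccl4, whose ratio in p38i went from 1.02 to 0.17, Ccl3, Zeb2 and Gzmf were no longer called there.

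Ccl5 (RANTES), the chemokine that memory and effector CD8 T cells store as message, was the most abundant gene of the list, with 5837 (5677 to 6001), 4118 (3965 to 4275) and 2488 (2384 to 2595) CPM. It was found in 111, 95 and 99 cells, and in 66.7%, 64.7% and 59.3% after thinning against 2.53%, 2.11% and 3.82% of granulocytes. The level was lower in p38i than in vehicle and lower again in p38KO, without overlap of the intervals. The log2 ratio to vehicle was -1.23 (-1.30 to -1.16) in p38KO and -0.50 (-0.57 to -0.44) in p38i, where it lay on the limit and was -0.28 with the rule read after thinning. Gzmb (granzyme B), the main cytotoxic protease, had 903 (840.4 to 969), 482 (431 to 538) and 395 (354 to 439) CPM, with -1.19 (-1.38 to -1.01) in p38KO and -0.90 (-1.10 to -0.72) in p38i. Gzmk (granzyme K) had 94.1, 72.1 and 31.1 CPM, with -1.60 (-2.28 to -0.95) in p38KO, and Prf1 (perforin) 151, 144 and 72.7 CPM, with -1.06 (-1.51 to -0.61). Granzymes B and K and perforin were thus lowest in p38KO, and Gzmb was also lower in p38i. Among pair-positive cells Gzmb had 1127, 596 and 698 CPM, likewise highest in vehicle.

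Gzma (granzyme A) was highest in p38KO, at 260.3, 159 and 555 CPM, but was found in only 15, 13 and 14 cells, and 1 cell of each library held 27.7%, 62.3% and 53.4% of its counts. Without the top cells it was not called against vehicle in p38KO, at 0.46. Xcl1, the chemokine that attracts cross-presenting dendritic cells, had 92.9 (73.7 to 116), 254 (217 to 295) and 94.6 (75.2 to 117) CPM in 13, 16 and 29 cells and was called higher in p38i, at 1.45 (1.06 to 1.85). In each library 1 cell held 31.2%, 37.9% and 14.6% of its counts, and its thinned shares were 3.47%, 7.35% and 8.57%. Ccl3, a further chemokine of activated T cells, had 98.8, 183 and 31.1 CPM. Its ratio of 0.89 (0.48 to 1.31) in p38i was 0.42 and not called without the top cell, while that of -1.66 (-2.35 to -1.03) in p38KO held at -1.52. Gzmf, Gzmm and Prdm1 were also called and were rare, with 4.65, 33.1 and 0, 20.9, 3.00 and 4.61 and 24.4, 12.0 and 6.92 CPM. Without the top cells Gzmf and Gzmm had fewer than 20 counts left and were not called. The Gzmm ratios were no smaller then, at -2.82 against -2.18 in p38KO and -3.44 against -2.80 in p38i, whereas 1 cell held 21 of the 22 counts of Gzmf in p38i. Prdm1 was still called lower in p38KO without them, at -1.94.

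Among the inhibitory genes that the rule did not read, calls went in both directions. Of 16 tested, 4 were called higher and 1 lower in p38i, against 4.53% and 2.67% of all genes. Of 14 in p38KO, 1 was called higher and 2 lower, against 6.7% and 3.74% of all genes. Ctla4, the inhibitory receptor that competes with CD28, had 66.2 (50.2 to 85.8), 24.0 (13.7 to 39.0) and 21.9 (13.2 to 34.2) CPM in 33, 12 and 10 cells, with log2 ratios of -1.60 (-2.43 to -0.82) in p38KO and -1.46 (-2.36 to -0.64) in p38i. It was the one gene of the list that was called lower in both against vehicle. Cd200r1, an inhibitory receptor of the immunoglobulin family, had 12.8, 34.6 and 28.8 CPM in 10, 19 and 21 cells and was called higher in both, at 1.17 (0.099 to 2.35) in p38KO and 1.43 (0.34 to 2.62) in p38i. Without the mixed cells the p38KO value was 0.96 and not called. Rgs16, a regulator of G protein signalling, had 29.0, 54.1 and 6.92 CPM and was called higher in p38i and lower in p38KO than in vehicle, the latter at -2.07 (-3.64 to -0.75) with all cells but not without the top cells, at -1.50 on fewer than 20 counts. Nr4a2, a nuclear receptor induced by receptor signals, had 8.13, 33.1 and 1.15 CPM in 5, 4 and 1 cells and was called higher in p38i with all cells, at 2.02. Without the top cells the ratio was 2.18, on fewer than 20 counts and so not called. Lgals3 (galectin-3) and Vsir (VISTA), with 697, 727 and 524 and 113, 137 and 118 CPM, were called in no comparison. Tox, the transcription factor of exhaustion, had 39.5, 43.6 and 24.2 CPM and was called in no comparison with all cells.

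Activation markers split by gene. In p38KO 4 of 19 tested were called higher and 6 lower (median -0.39), against 6.7% and 3.74% of all genes. In p38i 1 of 18 was called higher and 2 lower (median -0.04), against 4.53% and 2.67% of all genes. Cd69, an early activation and tissue-retention antigen, had 203 (174 to 236), 63.1 (45.5 to 85.3) and 212 (183 to 245) CPM in 66, 32 and 78 cells. After thinning 27.1%, 8.82% and 24.3% of cells had a UMI, against 1.30%, 1.56% and 1.96% of granulocytes. The p38i cells stood below both other libraries, with a log2 ratio of -1.69 (-2.21 to -1.20) to vehicle, and p38KO and vehicle were alike within counting error. The CD4 T cells held 238, 65.3 and 76.3 and the pair-positive cells 142, 44.8 and 89.7 CPM. In both, p38i had the lowest value of the 3 libraries, as in pair-negative cells, whereas vehicle had the highest, and in CD4 T cells p38KO lay nearer to p38i than to vehicle. Tnfrsf9 was instead highest in p38i, with 135, 218 and 69.2 CPM and log2 ratios of -0.96 (-1.44 to -0.50) in p38KO and 0.69 (0.33 to 1.06) in p38i. The p38i ratio was 0.20 with the rule read after thinning, and the p38KO ratio turned to 0.77 without cells that showed 3 or more of the other-cell markers. Tnfrsf4 (OX40), also of the tumor necrosis factor receptor family, had 63.9, 61.6 and 30.0 CPM, with -1.09 (-1.82 to -0.39) in p38KO. Ly6c2, with 1084 (1016 to 1156), 651 (591 to 715) and 754 (698 to 815) CPM, was called lower in both. The ratio was -0.52 (-0.67 to -0.38) in p38KO, or -0.50 and not called without the mixed cells, and -0.74 (-0.90 to -0.57) in p38i. Ifngr1, a chain of the interferon-γ receptor, had 597, 536 and 448 CPM and was called in no comparison.

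Interferon-stimulated genes were lowest in p38i and highest in p38KO. Of 33 tested genes, 0 were called higher and 5 lower in p38i than in vehicle, against 4.53% and 2.67% of all genes (median -0.17). In p38KO 13 of 34 were called higher and 1 lower, against 6.7% and 3.74% of all genes (median 0.25). Between p38KO and p38i, 18 of 34 were called higher and 0 lower, with a median of 0.57 against 0.016 over all genes. Without the mixed cells the last counts were 17 and 1, and with the rule read after thinning 17 and 0. The p38KO count against vehicle was 10 without the mixed cells and 8 with the thinned rule.

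Ifit1, an antiviral protein that binds foreign RNA, had 38.3 (26.4 to 53.8), 16.5 (8.25 to 29.6) and 150.0 (125 to 178) CPM in 16, 10 and 29 cells. The p38KO interval lay above both others, and those of p38i and vehicle overlapped. Against vehicle the log2 ratio was 1.97 (1.41 to 2.57) in p38KO and -1.21 (-2.35 to -0.19) in p38i, and p38KO differed from p38i by 3.18 (2.29 to 4.22). With the rule read after thinning the p38KO ratio to vehicle was 0.94. Ifit3, of the same family, had 34.9, 19.5 and 88.8 CPM, with 1.35 (0.72 to 2.01) in p38KO. Ifi27l2a, the most abundant of the list and a mitochondrial protein gene, had 601 (550.0 to 655), 617 (559 to 680.1) and 957 (893 to 1025) CPM, with 0.67 (0.51 to 0.83) in p38KO and 0.04 (-0.15 to 0.23) in p38i. Isg20, an exonuclease, had 77.8, 78.1 and 204 CPM in 39, 35 and 74 cells, and Isg15, a ubiquitin-like modifier, 181, 84.1 and 206 CPM in 36, 28 and 51 cells. The former was high in p38KO alone and the latter low in p38i alone. Rsad2 (viperin) had 31.4, 16.5 and 234 CPM, but 1 cell held 18.5%, 45.5% and 62.6% of its counts, and its p38KO ratio of 2.90 (2.32 to 3.54) was 1.10 without the mixed cells and -0.71 with the rule read after thinning. Ifit3b had 21, 2 and 21 counts in 12, 2 and 14 cells. Ifi203 had 342, 285 and 385 CPM and was called in no comparison. Granulocytes, which express these genes themselves, held more of them than the pair-negative cells did. Ifit1 was found in 17.3%, 8.39% and 25.7% of thinned granulocytes against 4.17%, 3.68% and 12.1% of pair-negative cells, and Isg15 in 57.3%, 44.4% and 64.4% against 13.2%, 8.09% and 17.9%. The granulocyte shares were lowest in p38i and highest in p38KO, as in the pair-negative cells, and the part of free granulocyte RNA in the interferon result was not tested. In conventional CD4 T cells Ifit1 had 45.5, 65.3 and 73.1 and Isg15 158, 181 and 137 CPM, and the p38i library was not the lowest for either gene.

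**Figure D3:**
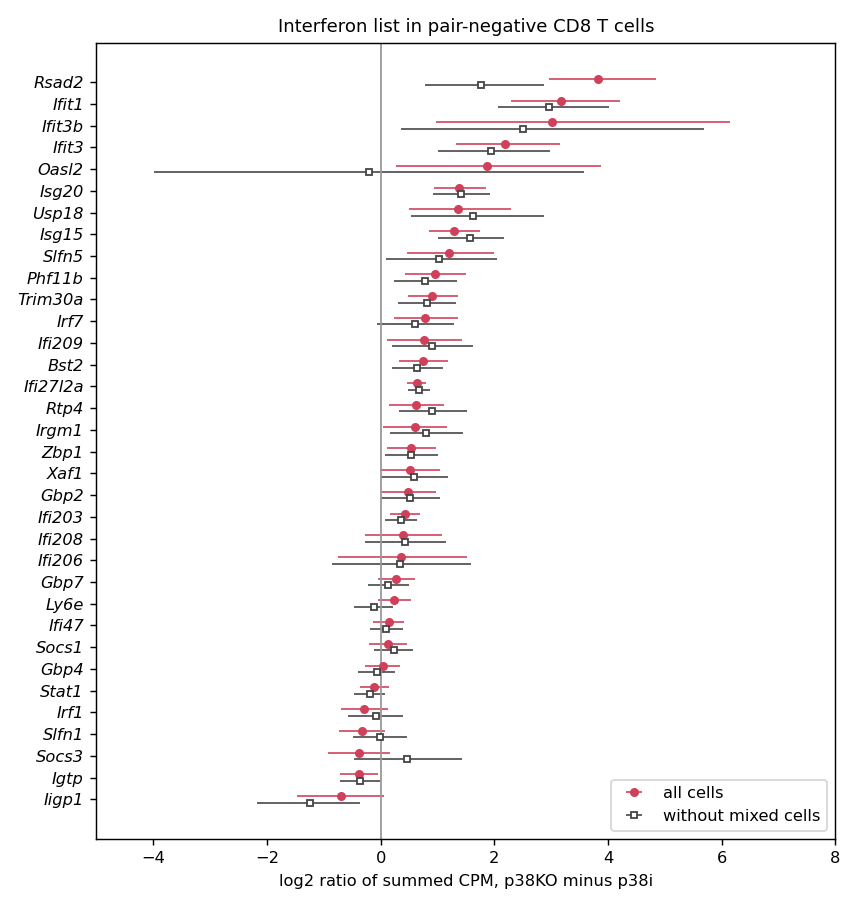
Log2 ratio of summed CPM, p38KO minus p38i (horizontal axis), for the 34 tested genes of the interferon list in pair-negative CD8 T cells, ordered by ratio. Filled circles use all cells, open squares leave out the mixed cells, and bars are exact conditional binomial 95% intervals for counting error. Most genes lie to the right of 0 with and without the mixed cells, 18 being called higher with all cells, and Oasl2 crosses 0 without them.

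The promoters of the 3 interferon-list genes with the largest ratio of p38KO to p38i are shown because interferon acts through a short element that the ISGF3 complex reads, searched here as GAAA, any 2 bases and GAAA. The genes were taken in order of that ratio among those called in the same direction with all cells, without the mixed cells and without the top cell, and with a match. Each line gives the 250 bases before the RefSeq start of transcription on GRCm38.p6, 5′ to 3′ on the strand of the gene, with every match on either strand in capitals. Rsad2 lies on the minus strand at chr12:26456453-26456702, Ifit1 on the plus strand at chr19:34640639-34640888 and Ifit3 on the plus strand at chr19:34583279-34583528.
Rsad2: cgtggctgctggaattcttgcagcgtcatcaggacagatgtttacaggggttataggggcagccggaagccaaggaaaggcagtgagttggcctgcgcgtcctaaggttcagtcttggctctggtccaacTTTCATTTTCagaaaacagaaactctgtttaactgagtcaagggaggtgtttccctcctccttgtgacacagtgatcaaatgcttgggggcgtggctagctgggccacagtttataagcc
Ifit1: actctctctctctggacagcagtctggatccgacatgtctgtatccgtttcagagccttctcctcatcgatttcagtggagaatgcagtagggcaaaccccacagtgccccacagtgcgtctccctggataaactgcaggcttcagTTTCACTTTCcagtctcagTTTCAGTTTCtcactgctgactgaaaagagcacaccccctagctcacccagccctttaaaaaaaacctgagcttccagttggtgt
Ifit3: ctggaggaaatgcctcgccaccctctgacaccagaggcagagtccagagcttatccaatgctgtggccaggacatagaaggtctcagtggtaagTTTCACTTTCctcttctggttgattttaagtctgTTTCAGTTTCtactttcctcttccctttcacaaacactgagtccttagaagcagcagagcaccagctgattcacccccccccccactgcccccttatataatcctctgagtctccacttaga
The Rsad2 window held 1 match and the Ifit1 and Ifit3 windows 2 each. Of the 35 genes of the list, 26 were matched to a promoter in RefSeq. Of these, 17 held the element in this window of at least 1 of their promoters. Of 32851 single mouse promoters of the same length 2.98% held it, a share per promoter and not per gene. Of the 14 matched genes called higher in p38KO than in p38i, 10 held it, and of the 12 matched genes not called, 7 did. A match of letters is a description and not a bound site.

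Immediate-early genes, which are switched on within minutes of a stimulus, were mostly highest in the vehicle cells. In p38i 10 of 18 tested genes were called lower and 0 higher (median -0.58), and in p38KO 10 of 18 lower and 0 higher (median -0.70). The shares of all genes called lower were 2.67% in p38i and 3.74% in p38KO. Without the mixed cells 9 and 9 were called lower. Dusp1, the phosphatase that inactivates p38 and other MAP kinases, had 119.7 (97.7 to 145), 39.1 (25.5 to 57.2) and 41.5 (29.1 to 57.5) CPM in 33, 13 and 15 cells, with -1.53 (-2.12 to -0.97) in p38KO and -1.62 (-2.30 to -0.98) in p38i. Tnfaip3 (A20), an inhibitor of NF-κB signalling, had 113 (91.4 to 137), 64.6 (46.8 to 87.0) and 34.6 (23.3 to 49.4) CPM, with -1.70 (-2.35 to -1.10) in p38KO and -0.80 (-1.36 to -0.27) in p38i. Junb had 403, 288 and 247 CPM and Fosb 27.9, 1.50 and 13.8 CPM in 14, 1 and 9 cells, both AP-1 subunits with the highest level in vehicle. Jund, the AP-1 subunit that is present at rest and the most abundant of the list, was highest in p38KO, with 594, 489.8 and 746 CPM and a ratio of 0.61 (0.41 to 0.80) between p38KO and p38i. Egr3 had 3, 16 and 5 counts, most of them in p38i.

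Some of the genes with the largest ratios outside that list were also highest in vehicle. Zfp36l2, an RNA-binding protein that destabilises AU-rich messages and belongs to the list of the p38 pathway and its targets, had 694 (639 to 752), 251 (214 to 292) and 281 (247 to 319) CPM in 123, 81 and 95 cells. Its log2 ratio to vehicle was -1.30 (-1.52 to -1.08) in p38KO and -1.47 (-1.72 to -1.22) in p38i. Tsc22d3 (GILZ), a glucocorticoid-induced regulator, had 181 (154 to 212), 60.1 (42.9 to 81.8) and 47.3 (33.9 to 64.2) CPM in 70, 28 and 27 cells, with -1.94 (-2.47 to -1.43) in p38KO and -1.59 (-2.13 to -1.08) in p38i. For both genes the vehicle interval lay above those of the other libraries, and the ratios kept their sign and a size above 0.5 under every alternative tried. Vehicle was also the highest library in the other T cells. Zfp36l2 had 817, 346 and 226 CPM in conventional CD4 T cells and 476, 169.8 and 224 in pair-positive cells, and Tsc22d3 298, 81.6 and 69.9 and 58.8, 46.3 and 25.6. Vps37b, of the endosomal sorting machinery, had 310.2 (274 to 349.7), 195 (163 to 232) and 118 (95.9 to 143) CPM, with -1.40 (-1.74 to -1.06) in p38KO and -0.67 (-0.98 to -0.36) in p38i.

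Over the p38 pathway list, Zfp36l2 included, 2 of 11 tested genes were called higher and 2 lower in p38i, and 1 higher and 3 lower in p38KO. All genes gave shares of 4.53% higher and 2.67% lower in p38i, and of 6.7% and 3.74% in p38KO. Mapk14 itself, intact in these host cells, had 33.7 (22.6 to 48.4), 40.6 (26.7 to 59.0) and 38.1 (26.2 to 53.5) CPM, and was called in no comparison. Dusp5, a phosphatase of ERK, had 91.8, 51.1 and 48.4 CPM, with -0.92 (-1.50 to -0.36) in p38KO and -0.85 (-1.47 to -0.25) in p38i. Dusp10, a phosphatase of p38 and JNK, had 16.3, 33.1 and 13.8 CPM, and Gadd45b, which binds an upstream kinase of p38, 61.6, 94.6 and 31.1 CPM, highest in p38i. Gadd45b was not called against vehicle without the mixed cells, its ratios being -0.23 against -0.98 in p38KO and 0.75 against 0.62 in p38i. Zfp36l1, the sister of Zfp36l2, had 187, 162 and 181 CPM and was called in no comparison, and Map2k4, a kinase above JNK and p38, had 13.9, 24.0 and 32.3 CPM and was called higher in p38KO than in vehicle with all cells, at 1.21. Its ratio was as large without the mixed cells, 1.22, but the counting interval held 0. Of 11 heat-shock chaperone genes, 0 and 1 were called higher and lower in p38i, and 1 and 1 in p38KO. Hsp90ab1, with 1186, 1249.9 and 1259.7 CPM, and Hspa8, with 959, 751 and 966 CPM, were called in no comparison. Hspa1b, an inducible HSP70, had 58.1, 19.5 and 33.5 CPM, of which 1 cell of each library held 22.0%, 53.8% and 24.1%, and its paralog Hspa1a 13.9, 25.5 and 38.1 CPM. The reads of this pair can be split between near-identical copies, so both values are uncertain.

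**Figure D4:**
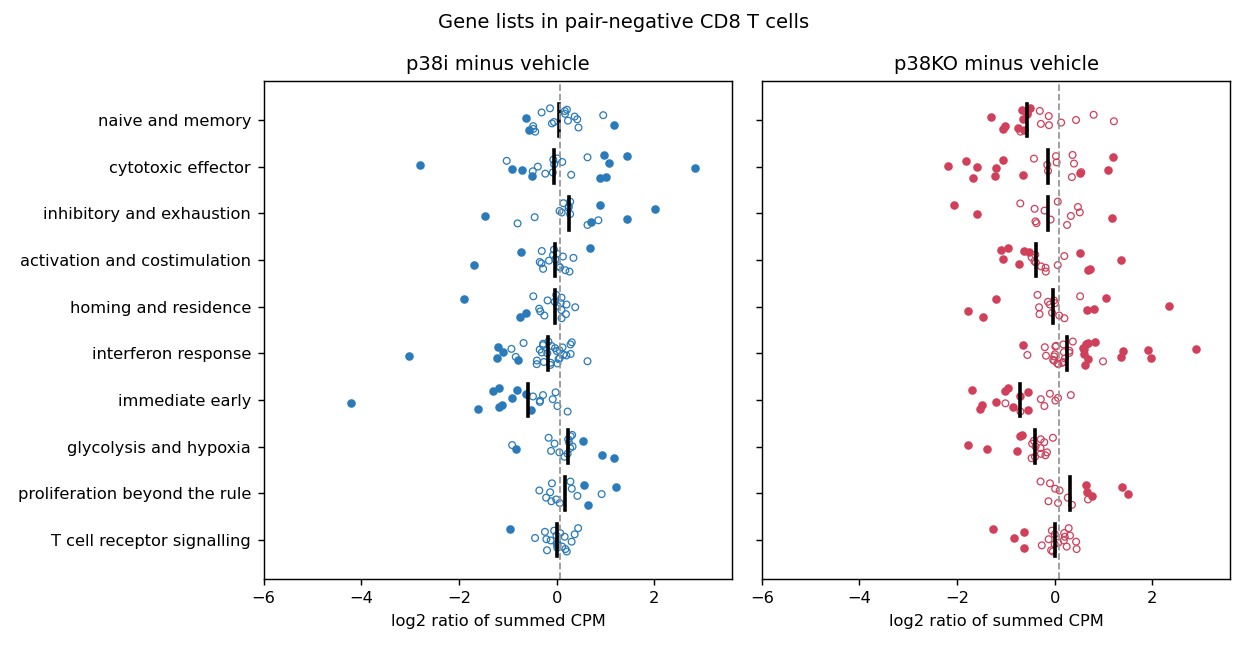
Log2 ratio of summed CPM to vehicle (horizontal axes) of every tested gene of 10 gene lists in pair-negative CD8 T cells, for p38i (left) and p38KO (right). Each point is 1 gene, filled where called by size and open where not, black bars are list medians and the dashed line is the median of all tested genes. Both panels share the vehicle library. The median of the immediate-early genes lies left of the dashed line in both panels, and that of the naive and memory genes in the right one.

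With all cells, genes of the T cell receptor apparatus were called lower or not at all. In p38i 1 of 20 was called lower and 0 higher, and in p38KO 4 lower and 0 higher. The medians were 0.016 and 0.00072. Over all genes 2.67% were called lower in p38i and 3.74% in p38KO. Txk, a Tec-family kinase, had 241 (209 to 276), 125 (99.3 to 155) and 100.4 (80.4 to 124) CPM, with -1.26 (-1.64 to -0.89) in p38KO and -0.95 (-1.33 to -0.57) in p38i. Ptpn22, a phosphatase that dampens receptor signals, had 324, 239 and 182 CPM, with -0.83 (-1.12 to -0.54) in p38KO. Trbc2, a constant region of the receptor beta chain, had 1449, 1400.2 and 1391 CPM and was called in no comparison, while Trbc1 had 1093, 927 and 709 CPM, with -0.62 (-0.77 to -0.48) in p38KO. The 2 constant regions are near-identical in coding sequence, so their split is uncertain. Cd5, a negative regulator of receptor signals, had 101, 102 and 65.8 CPM, with -0.62 (-1.13 to -0.12) in p38KO.

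Of the killer-cell lectin-like receptors, 3 of 7 tested genes were called lower and 0 higher in p38KO (median -0.63), against 1 and 0 in p38i (median -0.13). Among all genes 3.74% were called lower in p38KO and 2.67% in p38i. Klrd1 (CD94), the partner chain of the NKG2 receptors, and Klrc1 (NKG2A) had 637, 735 and 577 and 408, 373 and 359 CPM and were called in no comparison. Klre1, which pairs with other receptors of the family, had 94.1, 102 and 31.1 CPM, with -1.60 (-2.28 to -0.95) in p38KO, and Klrc2 (NKG2C) 266, 191 and 172 CPM, with -0.63 (-0.94 to -0.33). Klra3, a Ly49 receptor, had 22, 5 and 2 counts, with -3.47 in p38KO and -1.77 in p38i. Without the top cells it was called in neither, though the ratios were no smaller in size, at -4.92 and -1.95. The genes of this family resemble each other closely, so counts can be shared between copies.

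As a list, glycolytic and hypoxia-response genes were lower in p38KO than in p38i. Of 17 tested, 11 were called lower and 0 higher in p38KO than in p38i (median -0.57), and 7 and 0 both without the mixed cells and without the top cells. Against vehicle 5 were called lower and 0 higher in p38KO (median -0.40), and 3 higher, or 1 without the mixed or the top cells, and 1 lower in p38i (median 0.24). Among all genes 4.4% were called lower in p38KO than in p38i and 3.74% lower in p38KO than in vehicle. For p38i against vehicle the shares were 4.53% higher and 2.67% lower. Gapdh had 1495 (1415 to 1579), 1749 (1649.7 to 1852) and 1227 (1155 to 1303) CPM and was just past the limit between p38KO and p38i with all cells, at -0.51, and under it without the mixed cells, at -0.38. Mif, a cytokine induced by hypoxia, had 748 (692 to 808), 939 (867 to 1016) and 569.9 (521 to 622) CPM, with -0.72 (-0.89 to -0.55) between p38KO and p38i, and Bnip3, a hypoxia-induced mitochondrial protein, had 46.5, 105 and 33.5 CPM in 21, 21 and 18 cells, with 1.18 (0.60 to 1.78) in p38i. Pdk1, which turns pyruvate away from mitochondria, and Hk2 (hexokinase 2) were highest in vehicle, with 39.5, 21.0 and 11.5 and 69.7, 39.1 and 26.5 CPM, and Hk2 was not called without the mixed cells, at -0.87 against -1.39 in p38KO. Ero1l, an oxidase of the endoplasmic reticulum, had 59.3, 113 and 51.9 CPM, and its p38i ratio of 0.93 was -0.045 without the mixed cells. Hilpda, a hypoxia-induced lipid droplet protein outside the list, had 161 (136 to 191), 182 (151 to 217) and 34.6 (23.3 to 49.4) CPM in 39, 27 and 19 cells and a log2 ratio to vehicle of -2.22 (-2.84 to -1.64) in p38KO, which was -1.13 without the mixed cells. It was found in 41.4%, 45.0% and 30.5% of thinned granulocytes, against 10.4%, 5.88% and 2.14% here.

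Of the cell-cycle genes that the rule did not read, 5 of 14 were called higher and 0 lower in p38KO (median 0.31), and 3 and 0 in p38i (median 0.17). Among all genes 6.7% were called higher in p38KO and 4.53% in p38i. The levels of the called cell-cycle genes given here were low. Mcm5, of the replicative helicase, had 17.4, 33.1 and 49.6 CPM in 11, 16 and 29 cells, with 1.51 (0.63 to 2.46) in p38KO, Mcm6 39.5, 36.1 and 62.3 CPM and Mcm4 29.0, 39.1 and 49.6 CPM. Stmn1, a microtubule regulator, had 11.6, 27.0 and 30.0 CPM and was called higher in both with all cells, at 1.37 in p38KO and 1.22 in p38i. The ratios without the mixed cells were 1.06 and 1.18, with intervals that held 0. The abundant chromatin genes H2afz and Hmgb2, with 438, 458 and 459 and 474, 440.2 and 434 CPM, were called in no comparison. Tubb4b, a tubulin gene, was among the leading genes called higher in p38i. It had 40.7 (28.3 to 56.6), 117 (92.6 to 146) and 109.6 (88.7 to 134) CPM in 26, 52 and 57 cells, with 1.43 (0.86 to 2.03) in p38KO and 1.53 (0.93 to 2.15) in p38i.

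Among other leading genes that were called with all cells, without the mixed cells and without the top cell, Nrn1 (neuritin) had 66.2 (50.2 to 85.8), 131 (105 to 161) and 5.77 (1.87 to 13.5) CPM in 13, 23 and 5 cells. It was lowest in p38KO, with -3.52 (-5.20 to -2.22) to vehicle and -4.50 (-6.16 to -3.22) to p38i, and pair-positive cells held more of it in every library, 242, 278 and 51.2 CPM. Bcl2l11 (BIM), which promotes the death of T cells, had 107 (86.2 to 131), 85.6 (64.9 to 111) and 26.5 (16.8 to 39.8) CPM, with -2.01 (-2.74 to -1.34) in p38KO. Ifitm1, a membrane protein gene that granulocytes express, in 80.0%, 79.1% and 71.2% of thinned cells, had 3531 (3406 to 3659), 1442 (1352 to 1536) and 1427 (1349 to 1509) CPM in 58, 45 and 49 pair-negative cells, with -1.31 (-1.40 to -1.21) in p38KO and -1.29 (-1.40 to -1.19) in p38i. Serpina3g, a protease inhibitor of activated T cells, had 48.8, 111 and 40.4 CPM, with 1.19 (0.62 to 1.77) in p38i, and Luc7l3, a splicing factor, 66.2, 139.7 and 113 CPM, with 1.08 (0.59 to 1.58).

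Other leading genes were those of macrophages, neutrophils and antigen-presenting cells, and rested on few cells. Apoe (apolipoprotein E) had 106, 69.1 and 1379.7 CPM in 20, 15 and 63 cells, and in each library 1 cell held at least as many of the counts as all other cells together. Its log2 ratio of 3.71 in p38KO was 2.15 without the mixed cells. The complement genes C1qa, C1qb and C1qc had 9.29, 6.01 and 397, 3.49, 6.01 and 224 and 8.13, 6.01 and 250.3 CPM, with ratios of 5.42, 6.00 and 4.94 in p38KO and of 1.72, 2.25 and 1.91 without the mixed cells, where C1qb had too few counts to be called. Rnase2a had 0, 0 and 95 counts, of which 1 cell held 98.9%. Gatm and Ccl8 were likewise too rare to be called against vehicle in p38KO without the mixed cells, with ratios of 2.94 and 2.30 against 4.83 and 4.64 with all cells. Tgfbi, with 46.5, 128 and 79.6 CPM, had 65.0%, 61.2% and 43.5% of its counts in 1 cell and had too few counts to be called against vehicle without the mixed cells. Cstdc5, Lcn2, Fabp5 and Ccl6 were called in p38i with all cells, at 3.07, 1.18, 1.09 and -1.47. None of these 4 was called in p38i without the mixed cells. The ratio of Fabp5 was then 0.38, whereas Cstdc5, Lcn2 and Ccl6 had fewer than 20 counts left, with ratios of 4.33, 0.92 and 2.33. H2-Eb1, H2-Aa, H2-Ab1 and Cd74, of antigen presentation on class II, were called lower in p38i, at -3.70, -2.41, -1.57 and -2.62. They were not called without the mixed cells, at -0.44, 0.62, -0.0031 and -0.32. Cd74 had 415, 67.6 and 869 CPM in 26, 15 and 56 cells, and in p38KO it was called higher both with all cells, at 1.07, and without the mixed ones, at 1.90. Without the 5% of cells with the most UMIs the direction turned, to -0.21.

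The markers of other cell types moved with these results as follows. The 18 myeloid markers summed to 5857, 7422 and 7513 CPM, with S100a9 as the most abundant in all libraries and none at 0. The 15 B and dendritic markers summed to 846, 204 and 1584 CPM, led by Cd74, and 8 of them were at 0 in each library. The 16 natural killer and γδ T cell markers summed to 696, 608 and 805 CPM, led by Fcer1g with 349, 203 and 321 CPM, and 6, 7 and 7 were at 0. Ncr1, the defining receptor of natural killer cells, had 24, 0 and 7 counts in 1, 0 and 3 cells. Tcrg-C1, Tcrg-C2 and Tcrg-C4, constant regions of the γ chain, had 2.32, 43.6 and 25.4, 44.1, 66.1 and 104 and 9.29, 31.5 and 17.3 CPM. The 10 CD4 and regulatory T cell markers summed to 106, 134 and 119 CPM, led by Gata3 with 52.3, 69.1 and 57.7 CPM and Ikzf4 with 25.6, 40.6 and 25.4, and Foxp3 was found in 2, 4 and 3 cells. The 13 mast cell, red cell and tumor cell markers summed to 2.32, 3.00 and 40.4 CPM, with Cpa3 and Mcpt4 at 0, 0 and 14 and 0, 0 and 10 counts. Ncr1 and Foxp3 were thus seen in few cells, while myeloid RNA was present in all libraries. Of the myeloid markers tested with all cells, 9 of 16 were called higher and 2 lower in p38KO than in vehicle (median 0.82), and 4 of 14 higher and 3 lower in p38i (median 0.24). Without the mixed cells fewer had enough counts, and 4 of 7 were called higher and 0 lower in p38KO (median 1.72), and 4 of 5 higher and 0 lower in p38i (median 1.29). S100a9 in p38i, at 0.37 and not called with all cells, was 0.97 and called higher without the mixed ones. Leaving out the mixed cells thus did not even out the myeloid RNA of the libraries, and its part in the other differences was not tested.

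Read in single cells after thinning to 1500 UMIs, effector transcripts marked a minority of the pair-negative cells. A cell was in the effector state with 2 or more of Gzma, Gzmb, Gzmk, Prf1 and Ifng. This state held 22.9% (16.3% to 30.7%) of the vehicle cells, 19.1% (12.9% to 26.7%) of the p38i cells and 11.4% (6.68% to 17.9%) of the p38KO cells. The share was lowest in p38KO, with an interval that overlapped that of vehicle. Granulocytes were in the effector state in 0.949%, 0.798% and 0.513% of cells, below the shares of the pair-negative cells. Among pair-positive CD8 T cells 33.9%, 30.0% and 22.7% were in it, the last of 22 cells, and among conventional CD4 T cells 0 of 113, 2.04% and 0.581%.

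**Figure D5:**
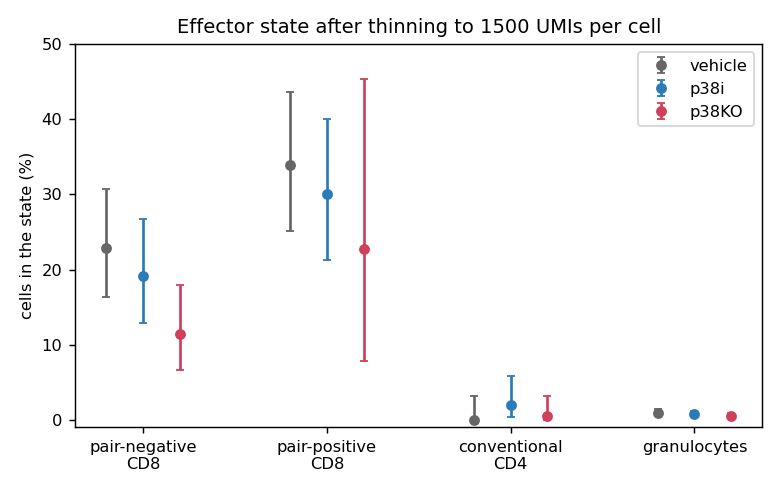
Share of cells in the effector state after each cell was thinned to 1500 UMIs (vertical axis, percent), for pair-negative and pair-positive CD8 T cells, conventional CD4 T cells and granulocytes of the 3 libraries. Points are the shares and bars exact Clopper-Pearson 95% intervals for counting error. Both CD8 classes lie above CD4 T cells and granulocytes, and p38KO has the lowest share in each CD8 class.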

How the data were processed

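The deposited values were unnormalized UMI counts per gene and barcode, made by the authors with Cell Ranger (6.0.0 in the file headers) against mm10 (submitters' processing notes). The annotation was not given in the sources used here. Counts of 32285 genes were read with Python 3.11.15, numpy 2.4.6, scipy 1.17.1 and pandas 2.3.3, and plotted with matplotlib 3.10.9. Cells were not clustered and doublets were not removed. Counts were summed over the selected cells of each library and scaled to CPM with exact Poisson intervals, log2 ratios were computed with 0.5 in place of a count of 0, and cells were thinned without replacement (seed 1). The cells of a library are not replicates, so no test between groups was run. The interval and call functions were checked on simulated counts.

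The cells, the 18 gene lists and the limits were chosen with earlier results of these data known. Genes named were those of the rule and the lists (for each list the 2 with the most counts and up to 4 called with the largest ratio), the 10 with the largest ratio per comparison and direction (at least 60 counts and 100 CPM), the 20 most abundant and the 10 per direction that differed most from pair-positive cells. Mitochondrial, ribosomal protein, Gm-numbered, Rik and receptor or immunoglobulin variable genes were left out of the ranking by ratio. Tcf7, Lef1, S1pr1, Satb1, Slamf6, Cd28, Itga1, Gzma, Gzmb, Gzmk, Prf1, Isg15, Isg20, Oasl2, Tox and Mapk14 were named after their values were seen. Some genes, and a naive or memory state of single cells, are not reported here. Mx1 and Aldoa could not be matched to a single gene of the files. Alternatives were another cell filter, a stricter CD3 or CD8 rule, the rule read after thinning, mixed or deep cells left out, other scalings and other limits. Leaving out mixed cells, or the top cell of a gene, was added after the data were seen.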

Additional observations from a re-analysis of the deposited data

Results flagged for a closer look

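Barcodes below the cell filter were used in no comparison, and some of them met the same transcript rule. There were 3 such barcodes in vehicle, 7 in p38i and 7 in p38KO. They were left out because of low depth, few genes or a high mitochondrial share, and no value in them was compared.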

How the results depend on the processing

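No paired analysis was possible because each group had 1 library, so no replicate could be left out either. Over 516 log2 ratios of named genes and 12 alternatives, 5332 of 5968 recomputed values stayed inside the counting interval of the reported value, 600 left it and 36, of values called with all cells and with 20 or more counts left, turned direction. The alternatives differed widely. With no filter on cells, or with at least 2500 UMIs, all 516 stayed. With the rule read after thinning 330 stayed, 163 left and 14 turned. Without cells with 3 or more other-cell markers the counts were 220, 164 and 4, and without the mixed cells 407, 71 and 7. With the rule read after thinning, the share of pair-negative cells was 85.2%, 85.2% and 97.3%. Log2 ratios that then turned were, for p38i minus vehicle, Dapl1 -0.16, Fabp5 -0.071, Spp1 -0.38, Klra3 0.22 and Gzmf -0.40. For p38KO minus vehicle they were G0s2 0.31, Rsad2 -0.71, Tcrg-C2 -0.40, Usp18 -0.23 and Tcf7 0.11, and for p38KO minus p38i Fabp5 0.78, Ccr2 0.026, Tgfbi 0.19 and Gzmf 0.56. Without cells with 3 or more other-cell markers, which left out 68, 53 and 88 cells, the genes called numbered 191 higher in p38i, 264 higher and 113 lower in p38KO than in vehicle, and 120 lower in p38KO than in p38i, and in p38KO minus vehicle Tnfrsf9 (0.77), Ccr7 (0.27), Irf7 (-0.15) and Hspa1b (0.14) turned. Without the 5% of cells with the most UMIs, Apoe (0.38) and Ero1l (-0.11) turned in p38i, Tgfbi (-0.0046), H2-Ab1 (-0.16), H2-Eb1 (-0.24) and Cd74 (-0.21) in p38KO, and Fabp5 (0.60) and Ero1l (0.069) between p38KO and p38i. Without the mixed cells, Apoe (1.29), Ero1l (-0.045) and H2-Aa (0.62) turned in p38i, G0s2 (0.35) in p38KO, and S100a8 (1.47), S100a9 (1.25) and Cstdc5 (1.19) between p38KO and p38i. With every cell weighted equally Apoe turned in p38i (0.53), and without the top cell Fabp5 (0.053) and Ccl4 (0.058) between p38KO and p38i. The cause of these turns was not tested. The effector state read at the depth of each cell gave shares of 47.2%, 34.6% and 31.4%, and read from 1 gene 54.2%, 43.4% and 40.0%. A limit of 50 counts left 199 genes called lower in p38KO than in p38i. A log2 limit of 1 left 148 higher and 91 lower in p38i, 236 and 129 in p38KO against vehicle, and 181 and 156 in p38KO against p38i. Depth limits what can be seen: a gene with few counts, or a share among 136 to 144 cells, was known only within wide intervals, and the variation between mice was not measured.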

Other observations

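Within each library, pair-negative cells with 1 of the exhaustion transcripts (68, 54 and 41 cells with Pdcd1 alone, or with Lag3 or Havcr2 alone) differed from those with none (76, 82 and 99 cells). The median depths were close, at 5155, 4730 and 5195 UMIs against 5260, 4442 and 5521. This split uses genes of the rule, and these values are a description. Lef1 was lower in the cells with 1 transcript in every library, with log2 ratios of -1.46, -2.07 and -2.65. Prf1 was higher, with 1.40, 1.44 and 0.72, the p38KO interval (-0.05 to 1.48) including 0, and Tnfrsf9 was higher with 0.89, 1.28 and 0.94. Gzma changed direction between libraries, at 2.20 (1.71 to 2.71) in vehicle, -1.18 (-1.88 to -0.53) in p38i and 0.0086 (-0.28 to 0.29) in p38KO. Klf2 was lower in p38i, at -1.90 (-2.40 to -1.44), and in p38KO, at -1.11 (-1.65 to -0.60), and -0.22 (-0.47 to 0.03) in vehicle. Nrn1 was almost limited to cells with 1 transcript in the vehicle library (53 counts against 4) and the p38i library (83 against 4), and had 2 counts against 3 in p38KO. Itgae had 162 CPM in p38KO cells with 1 transcript and 123 CPM in those with none, a log2 ratio of 0.41 (-0.17 to 0.97), so its high level in that library was found in both.

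Variable genes of the T cell receptor beta chain were seen in 20, 15 and 12 pair-negative cells. Trbv19 was the one in most cells of the vehicle library (5 cells) and of the p38i library (4 cells), and Trbv13-2 in p38KO (2 cells). At this detection clonal expansion cannot be read.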
